A study of Mus musculus with 6 samples.

Results

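The Notch pathway is described here through 10 genes: the receptors Notch1, Notch2 and Notch3, the ligands Dll1, Jag1 and Jag2, the DNA-binding factor Rbpj, and the target genes Hes1, Hey1 and Heyl. They were taken by symbol from a table of 17558 genes, and 10 of 10 were found and passed the filter on low counts. RNA-seq was done on C2C12 cells, an immortalized mouse myoblast line kept below confluence in 10% fetal bovine serum and harvested after 48 h in a differentiation medium of 2% horse serum with insulin, transferrin and selenium. The cells carried either a scrambled hairpin (shScr, labelled wild type), a hairpin labelled as a knockdown of Pkm1 (shPkm1) or one labelled as a knockdown of Pkm2 (shPkm2). Pkm encodes the glycolytic enzyme pyruvate kinase, and Pkm1 and Pkm2 are its alternatively spliced forms. Each of the 3 groups held 2 libraries. The labels do not say whether these came from separate cultures, so the p-values measure only the spread between these libraries, which may be technical.

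Notch receptors are single-pass membrane proteins that bind Delta-like and Jagged ligands on a neighbouring cell. Binding allows proteases to release the intracellular part of the receptor, which enters the nucleus and, with Rbpj and Mastermind-like coactivators, switches on Hes and Hey genes. These encode basic helix-loop-helix repressors. In skeletal muscle, Notch signalling is known for keeping satellite cells undifferentiated, and its activation in cultured myoblasts is known to hold back differentiation.

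Library totals were 18216896 to 19796036 estimated counts. Pearson correlations across genes, which are not independent replicates, were 0.988 to 0.994 within groups and 0.86 to 0.921 between them. The transcript that encodes Pkm1 stood at 546 and 589 TPM (transcripts per 1000000, a length-corrected level) in shScr, 243 and 218 in shPkm1, and 254 and 254 in shPkm2. The transcript that encodes Pkm2 stood at 1073 and 1517, 1278 and 1379, and 2700 and 2630 TPM in the same order. It was thus not lower in the libraries labelled shPkm2, for which the words "under the shPkm2 label" are used below. The labelled cell type was checked with 8 muscle markers, all detected: their summed level was 26627 to 37287 CPM (counts per 1000000) in shScr, 10879 to 12473 in shPkm1 and 1439 to 1486 under the shPkm2 label, with 7 of 8 lower under each hairpin label. The remaining one, the myoblast factor Myf5, stood at 18.2 and 18.7 CPM in shScr, 22.9 and 21.0 in shPkm1 (not called), and 62.4 and 60.5 under the shPkm2 label (called higher). The muscle differentiation factor Myog fell by 0.94 and by 5.35 on the log2 scale against shScr with the shPkm1 and shPkm2 labels (edgeR, adjusted p = 3.19e-05 and 1.06e-11), and the proliferation marker Mki67 rose by 1.46 and 2.90 (adjusted p = 5.43e-07 and 5.31e-10). Both differed between all 3 groups, and their part in the Notch results below was not tested. Of the markers of 7 other cell types, the adipocyte, osteoblast, endothelial, immune and epithelial lists summed to at most 2.61 CPM in any library. The chondrocyte list summed to 33.7 to 78.0 CPM, nearly all of it Sox9 with Matn1 at 0, and the neural list to 19.9 to 33.3 CPM, nearly all of it Tubb3 with Snap25 at 0. Sox9 moved with the groups: it stood at 41.4 and 43.2 CPM in shScr, 33.5 and 34.9 in shPkm1 (called lower), and 78.0 and 70.0 under the shPkm2 label (called higher). In the immune and the neural list 1 gene each was called higher under each hairpin label. The part of these genes in the Notch results was not tested.

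Promoters were searched for short motifs on both strands, in the 250 bases before each start that had a promoter window. Other starts were not searched. The Rbpj windows end at 53590345 and 53590485, inside a gene that begins at 53555779. The Jag2 window, 112929496 to 112929745, also lies inside its gene, which reaches 112929812. RefSeq promoter windows (GRCm38.p6) matched 7 of the 10 members, in 9 windows, and Hes1, Hey1 and Heyl had no entry. The core bound by Rbpj, TGGGAA, was held by 21.6% of all 32851 windows, and among the members only by those of Rbpj itself. The E-box CANNTG, to which myogenic factors bind, was held by 66.2% of all windows and by windows of Jag1, Rbpj and Dll1. CACGTG, the E-box of Hey factors and one form of CANNTG, was held by 6.02% of all windows and by none of the members'. CACNAG, the N-box of Hes factors, was held by 36.7% of all windows and by those of Notch1, Notch2 and Notch3. A match is a description of letters and not a binding site. The Rbpj matches are printed because they are the TGGGAA letters found in a member. The E-boxes of Dll1 are printed because Dll1 had the largest fall of the members, and those of Rbpj and Jag1 for comparison. Capitals mark the motif, in the orientation of the gene, and TTCCCA is TGGGAA on the opposite strand.
Rbpj TGGGAA at chr5:53590187-53590212: tgaaaaaggcTGGGAAcccgcggcga
Rbpj TGGGAA at chr5:53590271-53590296: cgctcgcattTTCCCAggacccctcc
Rbpj E-box at chr5:53590124-53590149: gccgctccggCACCTGatactgagat
Rbpj E-box at chr5:53590212-53590237: agcgggaagcCACTTGgaaaacaccc
Dll1 E-box at chr17:15377146-15377171: gtctttcaaaCATGTGccggacattg
Dll1 E-box at chr17:15377072-15377097: gtgcagagagCAGGTGctgtctgcat
Dll1 E-box at chr17:15377049-15377074: cattaccataCAGCTGagcgcacaaa
Dll1 E-box at chr17:15376028-15376053: gggggctgctCATTTGcatctcatta
Jag1 E-box at chr2:137116587-137116612: gcgtttcatgCAGCTGatctgaaagg
The Rbpj sequences lie on the plus strand and those of Dll1 and Jag1 on the minus strand. For the start at position 53590346, the TGGGAA copies of Rbpj began 149 and 65 bases before it. Dll1 had 3 E-boxes before its outer start, at 15376932, and 1 before the inner one, at 15375823.

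Members were compared between groups on CPM scaled by TMM (trimmed mean of M-values) factors, with edgeR's quasi-likelihood test and Benjamini-Hochberg adjustment over all 12643 tested genes. A gene is called where its adjusted p is under 0.05. Positions of genes are those of RefSeq on GRCm38.p6, the assembly that mm10 denotes. The 3 comparisons share libraries, so that a shift in 1 group enters 2 of them. In the shPkm1 libraries 6 of 10 members were called against shScr, 5 higher and 1 lower, where 63.1% of all tested genes were called (31.8% higher, 31.4% lower). Under the shPkm2 label, 6 of 10 were called against shScr, 2 higher and 4 lower, where 68.0% of all genes were called (33.9% higher, 34.2% lower). Between the shPkm2-labelled and the shPkm1 libraries, 6 of 10 were called, 1 higher and 5 lower with the shPkm2 label, where 53.0% of all genes were called (25.7% higher, 27.3% lower). Called changes of 2-fold or more were seen in 3, 3 and 4 members, beside 22.1%, 27.9% and 18.6% of all genes. Hey1 between the hairpins rounds to 2.0-fold but lay just under the cut before rounding, and is not counted. The 2 libraries of 1 group lay on 1 side of those of the other in 8, 7 and 9 members, beside 81.0%, 83.9% and 79.8% of all genes. The share of members called was thus near that of all genes in each comparison, and what follows is about which members moved and how far. The members' median log2 fold change was 0.34, -0.02 and -0.62 in these comparisons, where the median of all genes was 0.00, 0.01 and 0.00. Their median absolute log2 change was 0.53, 0.34 and 0.87, beside 0.49, 0.59 and 0.38 for all genes. In bulk RNA, fewer cells of a type and less RNA per cell cannot be told apart.

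**Figure D1:**
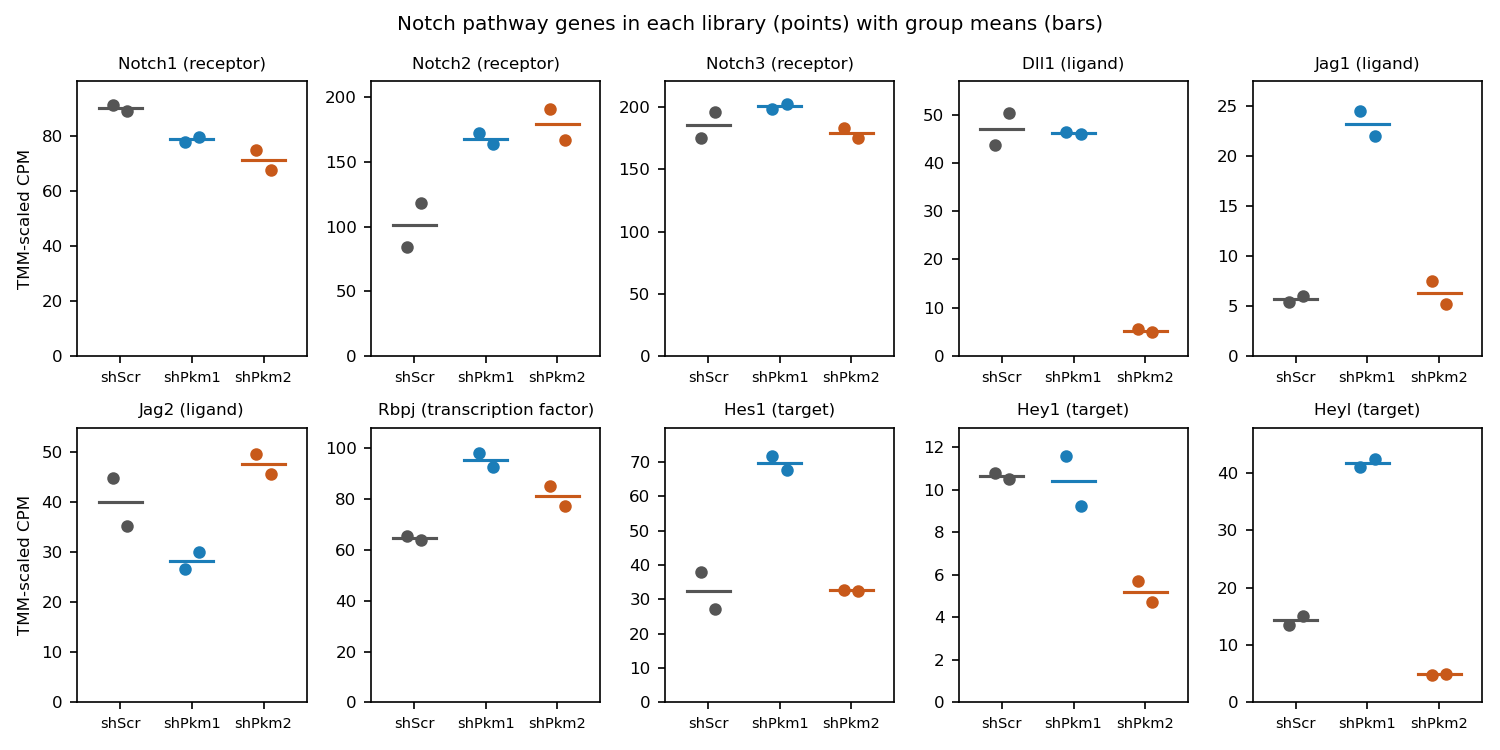
TMM-scaled CPM of each member in the 6 libraries, 1 panel per gene with its own axis, points for libraries and bars for the mean of each group. Dll1 sits at 5.51 and 4.91 CPM under the shPkm2 label and at 43.8 to 50.4 in the other libraries, and Heyl at 41.1 and 42.4 CPM in shPkm1.

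Among the receptors, Notch2 rose with both hairpins, Notch1 was called lower only in the comparison of the shPkm2-labelled libraries with shScr, and Notch3, the receptor with the highest level, was called in no comparison. Notch2, a large receptor on chromosome 3 (NCBI gene 18129, 98013538 to 98150367, plus strand) known for a role in muscle satellite cells, stood at 83.8 and 118 CPM in shScr, 172 and 164 CPM in shPkm1, and 191 and 167 CPM under the shPkm2 label. The shScr libraries were the lowest of the 6 and did not overlap with either hairpin group, whereas the hairpin groups overlapped with each other. Against shScr its log2 fold change was 0.73 in shPkm1 (SE 0.139, adjusted p = 0.000497) and 0.83 under the shPkm2 label (SE 0.139, adjusted p = 0.000143). Between the hairpins it was 0.10 (95% interval -0.20 to 0.39, adjusted p = 0.582). The size of the Notch2 rise depended on which shScr library was used: without replicate 2 it was 1.00 and 1.10, and without replicate 1 it was 0.51 and 0.61, called in each case.

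Notch1 (NCBI gene 18128, chromosome 2, 26457902 to 26503822, minus strand) stood at 91.3 and 89.1 CPM in shScr, 78.0 and 79.7 in shPkm1, and 74.8 and 67.5 under the shPkm2 label. The 3 groups did not overlap, and the whole range was narrow. The log2 fold change was -0.19 in shPkm1 (SE 0.0963, adjusted p = 0.0953) and -0.34 under the shPkm2 label (SE 0.0964, adjusted p = 0.00657). The second call was lost with scaling by library totals only, where the log2 fold change was -0.02 (adjusted p = 0.896), and on the TPM scale (limma on log2(TPM + 1), here and below) the value was 0.10, so that the direction of Notch1 rests on the scaling. Without replicate 2 of the shPkm2 label it was -0.27 (adjusted p = 0.105).

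Notch3 (NCBI gene 18131, chromosome 17, 32120820 to 32166896, minus strand), known as a receptor of muscle progenitors and vascular smooth muscle, stood at 175 and 196 CPM in shScr, 199 and 203 in shPkm1, and 183 and 175 under the shPkm2 label. Its log2 fold changes were 0.12 (SE 0.0991, adjusted p = 0.316), -0.05 (SE 0.0992, adjusted p = 0.66) and, between the hairpins, -0.17 (SE 0.0989, adjusted p = 0.168). Scaling by library totals gave 0.31 and 0.27 for the first 2 (adjusted p = 0.0266 and 0.0428) and the TPM scale 0.50 and 0.39 (adjusted p = 0.00532 and 0.0165), so that the absence of a call for Notch3 also rests on the scaling.

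The largest change of any member was that of a ligand. Dll1, a Delta-like ligand on chromosome 17 (NCBI gene 13388, 15367354 to 15376932, minus strand), fell 9.03-fold under the shPkm2 label against shScr and 8.85-fold against shPkm1. In shScr it stood at 43.8 and 50.4 CPM (691 and 892 estimated counts), in shPkm1 at 46.4 and 46.0 CPM (871 and 910 counts), and under the shPkm2 label at 5.51 and 4.91 CPM (117 and 103 counts). The shPkm1 values lay inside the range of shScr, and both shPkm2-labelled libraries lay far below every other library. The log2 fold change was -3.18 (SE 0.129, adjusted p = 2.06e-10) against shScr and -3.15 (SE 0.128, adjusted p = 4.06e-10) against shPkm1. Falls called at 8-fold or more were seen in 3.91% and 3.95% of all tested genes in these comparisons. Against shScr the value of Dll1 was -2.85 with library totals only and -2.35 on the TPM scale (adjusted p = 1.74e-09 and 9.93e-08), both short of 8-fold. In shPkm1 against shScr the log2 fold change was -0.03 (95% interval -0.26 to 0.20, adjusted p = 0.827), and its sign turned with library totals only (0.16) and on the TPM scale (0.35), in neither case called.

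Jag1 (NCBI gene 16449, chromosome 2, 137081451 to 137116520, minus strand), a Jagged ligand, rose 4.06-fold in shPkm1. It stood at 5.45 and 5.99 CPM in shScr (86 and 106 counts), 24.5 and 22.0 in shPkm1 (460 and 436 counts), and 7.48 and 5.20 under the shPkm2 label (159 and 109 counts). The shPkm1 libraries were the highest of the 6 by a wide margin, and the other 2 groups overlapped. Its log2 fold change was 2.02 in shPkm1 (SE 0.172, adjusted p = 4.88e-07), 0.15 under the shPkm2 label (95% interval -0.26 to 0.56, adjusted p = 0.503), and -1.87 between the hairpins (SE 0.165, adjusted p = 6.8e-07). With library totals only, Jag1 was called higher under the shPkm2 label as well (0.47, adjusted p = 0.0491), as it was on log2(TPM + 0.1) (0.58, adjusted p = 0.0485).

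Jag2 (NCBI gene 16450, chromosome 12, 112907803 to 112929812, minus strand), the other Jagged ligand measured, went the other way from Jag1 between the hairpins. It stood at 44.8 and 35.3 CPM in shScr, 26.6 and 30.0 in shPkm1, and 49.6 and 45.7 under the shPkm2 label, so that the 3 groups did not overlap. It fell by 0.50 on the log2 scale in shPkm1 (SE 0.127, adjusted p = 0.0039), was 0.25 under the shPkm2 label against shScr (SE 0.124, adjusted p = 0.087), and was 0.75 between the hairpins (SE 0.125, adjusted p = 0.000216). The call in shPkm1 was lost on the TPM scale (-0.09, adjusted p = 0.613) and without shPkm1 replicate 1 (-0.40, adjusted p = 0.0658), and without shScr replicate 1 the value was -0.32, still called. Under the shPkm2 label against shScr, Jag2 was called higher with library totals only (0.58, adjusted p = 0.00063), without shScr replicate 1 (0.43, adjusted p = 0.00133), and on the TPM scale with a pseudocount of 1 (0.67, adjusted p = 0.00111) or 0.1 (0.71, adjusted p = 0.001).

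**Figure D2:**
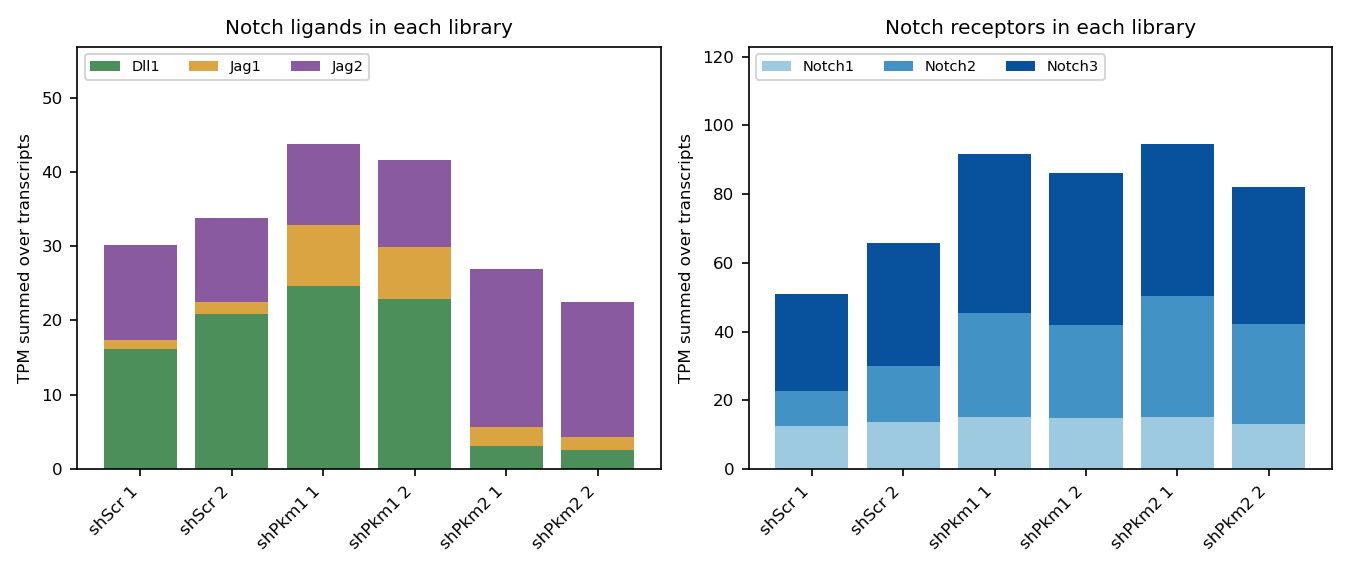
Summed TPM of the 3 ligands and of the 3 receptors in each library, stacked by gene. Jag2 makes up 79.0% and 80.9% of the ligand sum under the shPkm2 label, which is 27.0 and 22.6 TPM there.

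On the TPM scale, which allows levels of different genes to be set side by side, the make-up of the ligand transcripts differed between groups. Dll1 held 53.4% and 61.8% of the summed TPM of the 3 ligands in shScr, 56.3% and 55.0% in shPkm1, and 11.3% and 11.4% under the shPkm2 label. Jag2 held 42.4% and 33.5%, 24.9% and 28.2%, and 79.0% and 80.9% in the same order. Jag1 held 4.14% and 4.64%, 18.8% and 16.7%, and 9.78% and 7.67%. The shPkm2-labelled libraries were thus set apart by a Jag2 majority, and the shPkm1 libraries by the largest Jag1 share. A share also rises when another ligand falls. Mean Dll1 was 18.5 TPM in shScr and 2.8 under the shPkm2 label, and mean Jag2 was 12.1 and 19.8. Jag2 itself was not called there against shScr by edgeR (0.25, adjusted p = 0.087), while it was on the TPM scale. The receptors varied less: Notch3 held 46.8% to 55.4% of their summed TPM over the 6 libraries, Notch2 20.2% and 24.8% in shScr and 31.6% to 37.1% in the hairpin libraries, and Notch1 15.9% to 24.4%. No test was run on these shares. With 2 libraries against 2, no permutation test gives a p below 0.333, and no model was fitted to them.

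Rbpj, the factor through which all Notch receptors act on DNA (NCBI gene 19664, chromosome 5, 53555779 to 53657445, plus strand), rose with both hairpins. It stood at 65.5 and 63.7 CPM in shScr, 98.2 and 92.6 in shPkm1, and 85.1 and 77.2 under the shPkm2 label. The 3 groups did not overlap, with shScr lowest. The log2 fold change was 0.56 in shPkm1 (SE 0.098, adjusted p = 0.000253) and 0.33 under the shPkm2 label (SE 0.098, adjusted p = 0.009). The second call was lost without replicate 1 of the shPkm2 label (0.26, adjusted p = 0.111). Between the hairpins Rbpj was at -0.23 (SE 0.0966, adjusted p = 0.0573), a value that was called lower without either shScr library (adjusted p = 0.0176 and 0.0184), with only the 4 libraries compared (adjusted p = 0.0163) and when only genes averaging 50 counts or more were tested (-0.24, adjusted p = 0.0474).

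The 3 target genes each had a different pattern. Heyl was higher in shPkm1 and lower under the shPkm2 label, Hes1 rose in shPkm1 only, and Hey1 fell under the shPkm2 label only, by the calls against shScr. Between the hairpins all 3 were lower with the shPkm2 label.

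Heyl, a Hey-family repressor known as a Notch target in muscle satellite cells (NCBI gene 56198, chromosome 4, 123233556 to 123249870, plus strand), stood at 13.5 and 15.1 CPM in shScr (213 and 267 counts), 41.1 and 42.4 in shPkm1 (772 and 839 counts), and 4.80 and 5.01 under the shPkm2 label (102 and 105 counts). The 3 groups were far apart and the libraries within each were close. In log2 units Heyl changed by 1.54 in shPkm1 (SE 0.114, adjusted p = 1.39e-07, 2.92-fold higher) and by -1.54 under the shPkm2 label (SE 0.135, adjusted p = 3.6e-07, 2.91-fold lower). Between the hairpins it was -3.09 (SE 0.127, adjusted p = 4.18e-10), an 8.5-fold difference, which tests the difference between the 2 changes directly. The fall was smaller on the TPM scale (-0.81), and it was called there too.

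Hes1, a repressor and the textbook Notch target (NCBI gene 15205, chromosome 16, 30065357 to 30067796, plus strand), stood at 38.0 and 27.1 CPM in shScr, 71.7 and 67.5 in shPkm1, and 32.8 and 32.5 under the shPkm2 label. The latter lay between the 2 shScr libraries, and both shPkm1 libraries lay above all others. Its log2 fold change was 1.10 in shPkm1 (SE 0.135, adjusted p = 1.33e-05, 2.14-fold higher), 0.01 under the shPkm2 label (95% interval -0.29 to 0.31, adjusted p = 0.958), and -1.09 between the hairpins (SE 0.134, adjusted p = 1.48e-05). The value near 0 for Hes1 depended on the scaling and on the shScr library: it was 0.34 with library totals only (adjusted p = 0.0333), 0.47 on the TPM scale (adjusted p = 0.0052), 0.27 without shScr replicate 1 (adjusted p = 0.0453) and -0.22 without shScr replicate 2 (adjusted p = 0.0995).

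Hey1 (NCBI gene 15213, chromosome 3, 8663359 to 8667038, minus strand), a second Hey-family repressor, stood at 10.8 and 10.5 CPM in shScr (171 and 186 counts), 11.6 and 9.25 in shPkm1 (218 and 183 counts), and 5.70 and 4.72 under the shPkm2 label (121 and 99 counts). The shPkm1 values lay on both sides of those of shScr, and the shPkm2-labelled libraries lay below both. Hey1 had a log2 fold change of -0.03 in shPkm1 (SE 0.163, adjusted p = 0.868), with a sign that turned with library totals only (0.16) and on the TPM scale (0.31), neither called. It was -1.03 under the shPkm2 label against shScr (SE 0.173, adjusted p = 0.000143) and -1.0 against shPkm1 (SE 0.172, adjusted p = 0.000279). Against shScr the fall of Hey1 was -0.49 on the TPM scale, still called.

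**Figure D3:**
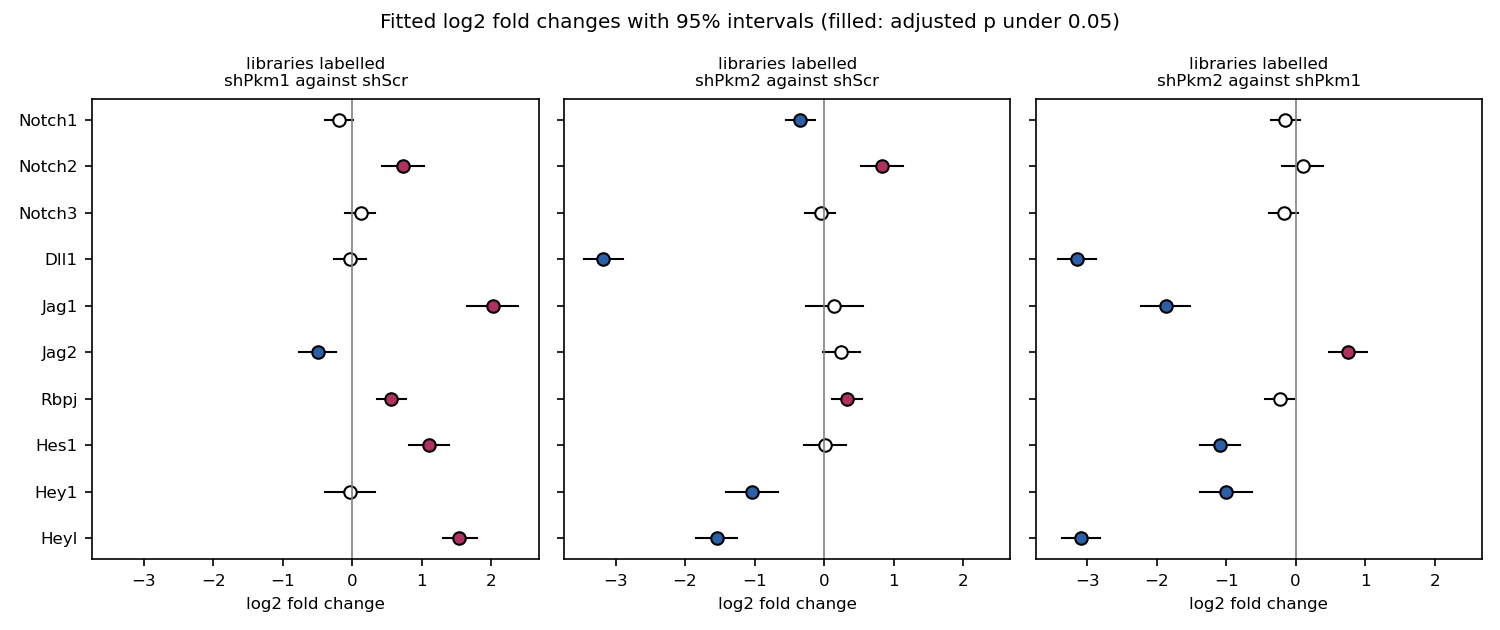
Log2 fold changes of the 10 members in the 3 comparisons with 95% intervals from the edgeR fit, filled where the adjusted p is under 0.05. The widest separations between the hairpin libraries are those of Dll1 (-3.15), Heyl (-3.09) and Jag1 (-1.87).

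The order of levels was read from TPM, as mean ± SD (n = 2). In shScr, Hes1 (32.0 ± 4.84 TPM) and Notch3 (32.0 ± 5.29) were highest and overlapped. Rbpj (20.2 ± 0.969), Dll1 (18.5 ± 3.39), Notch2 (13.3 ± 4.24), Notch1 (13.1 ± 0.877) and Jag2 (12.1 ± 1.04) followed, each overlapping with its neighbour. Hey1 (6.83 ± 0.438), Heyl (4.38 ± 0.714) and Jag1 (1.41 ± 0.226) were lowest, with no overlap between neighbours. In shPkm1, Hes1 led at 90.5 ± 7.15 TPM, ahead of Notch3 (45.2 ± 1.3), Rbpj (38.7 ± 3.37), Notch2 (28.8 ± 2.14), Dll1 (23.7 ± 1.19), Heyl (16.7 ± 0.297), Notch1 (15 ± 0.389), Jag2 (11.3 ± 0.615), Hey1 (8.78 ± 1.73) and Jag1 (7.59 ± 0.884). Of these neighbours only Hey1 and Jag1 overlapped. Under the shPkm2 label, Hes1 (44.5 ± 2.02) and Notch3 (42.1 ± 2.98) again led and overlapped, before Rbpj (34.7 ± 3.83) and Notch2 (32.1 ± 4.21), which also overlapped. Jag2 (19.8 ± 2.17), Notch1 (14.1 ± 1.53) and Hey1 (4.58 ± 0.778) came next, and Dll1 (2.8 ± 0.332), Jag1 (2.19 ± 0.643) and Heyl (2.05 ± 0.0141) were lowest, where Jag1 overlapped with Dll1 and with Heyl, and Dll1 and Heyl did not overlap. Dll1 therefore moved from the fourth place in shScr to near the lowest levels, and Heyl was above Notch1 in shPkm1 and below Hey1 elsewhere.

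The table gives each gene by transcript, with reads divided between transcripts by the authors' estimation. Both transcripts of Dll1 were lower under the shPkm2 label, with log2 fold changes of -3.28 and -3.05 against shScr (SE 0.197 and 0.181, edgeR adjusted p = 0.00176 and 0.00174 over 33433 transcripts). The main transcript of Jag1 rose by 2.09 in shPkm1 (adjusted p = 0.0155) and that of Hes1 by 1.14 (adjusted p = 0.0218). Notch3 was divided between 2 transcripts at 16.8 to 27.0 TPM and 11.5 to 24.2 TPM over the 6 libraries, and neither was called. Rbpj and Jag2 had 8 listed transcripts each, of which 5 and 4 were tested and none was called. Fewer calls were made per transcript than per gene also where 1 transcript carried all of a gene's counts: Notch1 under the shPkm2 label (-0.31, adjusted p = 0.0526), Notch2 in shPkm1 (0.77, adjusted p = 0.0768) and Hey1 under the shPkm2 label against shScr and shPkm1 (adjusted p = 0.0593 and 0.0933) were not called there.

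Beyond the members, a list of the pathway's other components held 72 genes, of which 70 were in the table and 59 were tested. In shPkm1 against shScr 19 were called higher and 18 lower (62.7%, beside 63.1% of all genes). Under the shPkm2 label against shScr, 21 were higher and 20 lower (69.5%, beside 68.0%), and between the hairpins 13 were higher and 19 lower with the shPkm2 label (54.2%, beside 53.0%). The medians were 0.11, -0.03 and -0.06. The list as a whole was thus called about as often as all genes. The counts by role that follow stand beside 31.8% higher and 31.4% lower of all genes in shPkm1, and 33.9% and 34.2% under the shPkm2 label. Of 5 other ligand genes only Dlk2 was tested, and it was not called. The remaining receptor gene, Notch4, chosen after its values were seen, had 8 to 25 counts per library. In the edgeR fit of all 6 libraries it was called only between the hairpins (-1.30, adjusted p = 0.0148). That call was lost with DESeq2 (-1.32, adjusted p = 0.134), on the TPM scale and without any 1 of the 4 hairpin libraries. In shPkm1 against shScr Notch4 was at 0.74, and at 0.35 to 1.34 with 1 library left out. There 1 alternative called it higher.

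Among the 5 tested genes for ligand endocytosis, which ubiquitinate ligands so that they can pull on the receptor, 1 was called higher and 2 lower in shPkm1, and 2 higher and 2 lower under the shPkm2 label. Neurl1a, a ubiquitin ligase of this group, stood at 345 and 323 CPM in shScr, 95.8 and 103 in shPkm1, and 23.8 and 23.4 under the shPkm2 label. Its log2 fold change was -1.75 in shPkm1 and -3.82 under the shPkm2 label (adjusted p = 1.29e-08 and 1.06e-11). Its relative Neurl1b, chosen after its values were seen, was near the floor in shScr (2 and 9 counts) and reached 114 and 95 counts in shPkm1 and 25 and 14 under the shPkm2 label. Of the 10 genes of receptor-cleaving proteases, 3 were called higher and 3 lower with each hairpin against shScr. Adam10, which makes the first ligand-dependent cut, rose by 0.76 and 1.07 (adjusted p = 3.47e-05 and 1.07e-06). Psen2, a catalytic subunit of gamma-secretase, fell by 0.63 and by 1.59 (adjusted p = 0.000716 and 2.11e-07), where the first call was lost on the TPM scale (-0.21, adjusted p = 0.187).

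Of 4 tested glycosyltransferases, which modify the receptors' extracellular part, 2 were called higher in shPkm1, 3 under the shPkm2 label and none lower, beside 31.8% and 33.9% of all genes called higher. Lfng, a Fringe enzyme that shifts the response of receptors between Delta-like and Jagged ligands, stood at 7.42 and 7.74 CPM in shScr, 22.4 and 21.7 in shPkm1, and 20.9 and 20.9 under the shPkm2 label. It rose by 1.54 and 1.46 against shScr (adjusted p = 3.23e-07 and 2.72e-07) and was at -0.08 between the hairpins (adjusted p = 0.571), or 0.05 with library totals only. Of 9 genes of receptor turnover, 1 was higher and 3 lower in shPkm1, and 2 were higher and 4 lower under the shPkm2 label. The ubiquitin ligase gene Dtx3l, of the Deltex family, fell from 115 and 120 CPM in shScr to 19.9 and 20.1 in shPkm1 and 17.5 and 14.9 under the shPkm2 label (log2 fold change -2.56 and -2.86, adjusted p = 8.58e-10 and 1.29e-10). Dtx4, another Deltex gene, fell by 1.28 and by 1.03 (adjusted p = 1.79e-05 and 7.46e-05). Numbl, which encodes a Numb-like endocytic inhibitor of Notch, was at 0.22 in shPkm1 (adjusted p = 0.0826), called higher with library totals only (0.42, adjusted p = 0.00455) and on the TPM scale (0.59, adjusted p = 0.00071), and fell by 0.51 under the shPkm2 label (adjusted p = 0.000816), a call lost with library totals only (-0.19, adjusted p = 0.14) and on the TPM scale (-0.06, adjusted p = 0.633).

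Of 8 coactivator genes, 3 were called higher and 1 lower in shPkm1, and 4 higher and none lower under the shPkm2 label. Maml2, a Mastermind-like coactivator, rose by 0.70 and 0.47 (adjusted p = 0.000294 and 0.00442), and the histone acetyltransferase gene Ep300 by 0.39 and 0.80 (adjusted p = 0.00599 and 1.9e-05), where the Ep300 call in shPkm1 was lost without shPkm1 replicate 1 (0.35, adjusted p = 0.0632). Of 12 corepressor genes, 3 were higher and 6 lower in shPkm1, and 7 higher and 3 lower under the shPkm2 label. Tle2, a Groucho-type corepressor at a mean of 8.25 CPM in shScr, rose with both hairpins (1.34 and 1.46, adjusted p = 1.06e-05 and 2.98e-06). Other Tle genes differed from it. Tle5, at a mean of 1253 CPM in shScr, was called lower with both (-0.58 and -0.30). Tle3 was called lower in shPkm1 only (-0.42), and Tle1 higher under the shPkm2 label only (0.71). Hdac1, a histone deacetylase, was at 0.07 in shPkm1 (adjusted p = 0.537) and rose by 0.91 under the shPkm2 label (adjusted p = 2.71e-06). Its value in shPkm1 was called higher with library totals only (0.27, adjusted p = 0.0372) and on the TPM scale with a pseudocount of 1 (0.45, adjusted p = 0.00255) or 0.1 (0.46, adjusted p = 0.00258).

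**Figure D4:**
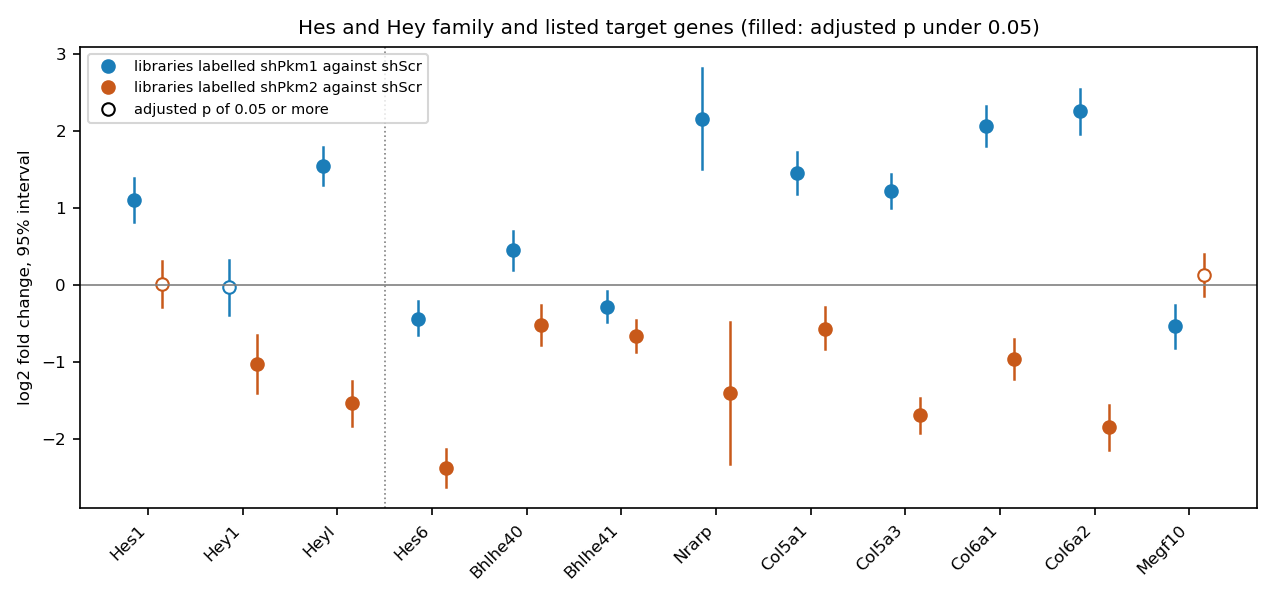
Log2 fold changes against shScr, with 95% intervals, of the 3 target members, left of the dotted line, and of the tested genes listed as other Hes and Hey family or target genes and as muscle stem cell targets. Heyl, Bhlhe40, Nrarp and 4 collagen genes are called higher in shPkm1 and lower under the shPkm2 label. Of all tested genes 31.8% were called higher in shPkm1 and 34.2% lower under the shPkm2 label. The share of all genes with both calls was not counted. The falls of Bhlhe40, Nrarp and the collagen gene Col5a1 lost their call on the TPM scale.

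Other tested genes, listed as relatives of the Hes and Hey family or as targets, were Hes6, Bhlhe40, Bhlhe41 and Nrarp. Of these 4, 2 were called higher and 2 lower in shPkm1. Under the shPkm2 label 4 of 4 were called lower, where 34.2% of all genes were called lower. The list mixes relatives with targets, so its counts are not a measure of Notch output. Bhlhe41 was called lower with both hairpin labels (-0.29 and -0.67). Nrarp, which encodes a feedback inhibitor of Notch, was chosen after its values were seen, since its mean was under 50 counts. It had 16 and 18 counts in shScr, 86 and 90 in shPkm1, and 11 and 5 under the shPkm2 label. The 3 groups did not overlap, and the log2 fold change was 2.16 in shPkm1 (SE 0.306, adjusted p = 4.53e-05) and -1.41 under the shPkm2 label (SE 0.429, adjusted p = 0.0104). The rise went down to 1.45 over the alternatives, still called. The fall was -2.05 to -0.96 with 1 library left out. Its call was lost without replicate 2 of the shPkm2 label (-0.96) and on the TPM scale (-0.28, adjusted p = 0.0663). Bhlhe40, a related repressor, rose by 0.45 and fell by 0.52 in the same order (adjusted p = 0.00497 and 0.00166), the fall being lost with library totals only (-0.19, adjusted p = 0.147) and on the TPM scale (-0.05, adjusted p = 0.683). Its rise was 0.27 without shScr replicate 2 and its fall -0.32 without shScr replicate 1, both still called. Hes6, a family member known to promote rather than hold back myogenic differentiation, stood at 286 and 269 CPM in shScr, 193 and 217 in shPkm1, and 49.7 and 56.5 under the shPkm2 label. It fell by 0.44 and by 2.38 (adjusted p = 0.00283 and 8.21e-10), where the first call was lost with library totals only (-0.24, adjusted p = 0.0589), on the TPM scale (-0.05, adjusted p = 0.688) and without shPkm1 replicate 1 (-0.34, adjusted p = 0.0653).

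Of 6 genes listed as Notch targets of muscle stem cells, 5 were tested, and 4 of them were called higher and 1 lower in shPkm1, and none higher and 4 lower under the shPkm2 label, beside 31.8% and 31.4% of all genes in shPkm1 and 33.9% and 34.2% under the shPkm2 label. The 4 were the collagen genes Col5a1, Col5a3, Col6a1 and Col6a2, subunits of matrix collagens V and VI. This list was chosen with earlier results of these data known, so its counts are not independent support. No other collagen genes were set beside it, and whether the pattern is particular to Notch targets was not tested. Col6a2 stood at 684 and 568 CPM in shScr, 2785 and 3201 in shPkm1, and 175 and 171 under the shPkm2 label. Its groups were far apart, in the order seen for Heyl and Nrarp. The log2 fold changes of Col5a1, Col5a3, Col6a1 and Col6a2 in shPkm1 were 1.46, 1.22, 2.07 and 2.26 (largest adjusted p = 6.29e-07, that of Col5a1). Under the shPkm2 label they were -0.57, -1.70, -0.97 and -1.85 (largest adjusted p = 0.00133, that of Col5a1, whose call was lost with library totals only, at -0.24 and adjusted p = 0.0932, and on the TPM scale, at -0.10 and adjusted p = 0.476). The fifth gene, Megf10, a receptor of satellite cells, fell by 0.54 in shPkm1 (adjusted p = 0.00246). The fall was -0.33 without shScr replicate 1, still called, and its call was lost on the TPM scale (-0.13, adjusted p = 0.426). Under the shPkm2 label Megf10 was at 0.13 (adjusted p = 0.375). That value became -0.05 without shScr replicate 2 and was called higher with library totals only (0.46, adjusted p = 0.00433), without shScr replicate 1 (0.34, adjusted p = 0.005) and on the TPM scale with a pseudocount of 1 (0.57, adjusted p = 0.00281) or 0.1 (0.59, adjusted p = 0.00263).

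The genes whose pattern was most like each member were found by the Euclidean distance between log2 CPM values centred over the 6 libraries, among 10706 genes averaging 50 counts or more. For Heyl they were Pappa2 (distance 0.291) and Fstl3 (0.355), of which Fstl3 stood at 31.8 and 32.4 CPM in shScr, 101 and 96.7 in shPkm1, and 11.1 and 9.07 under the shPkm2 label. For Dll1, Ntn4 was at a distance of 0.509, the largest of those given here. For Jag1 they were Aldh1l2 (0.289) and Pdgfrb (0.304), and for Hes1 Hbegf (0.156) and Phyh (0.278). For Jag2 they were Ybx1 (0.114) and Polr3b (0.17), for Hey1 Kctd7 (0.247) and Carns1 (0.256), and for Rbpj Ptar1 (0.0651) and Tcf4 (0.0835). For the receptors they were Zfp251 (0.0613) and Spg20 (0.0744) for Notch1, Lztfl1 (0.126) and Wdr19 (0.152) for Notch2, and Ppcdc (0.0421) and Srpr (0.0723) for Notch3. These distances are a description over 6 libraries and carry no test.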

How the data were processed

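RNA-seq of 6 libraries of a mouse cell line, 2 in each of 3 groups, was analysed from 1 deposited table of 57920 transcripts. Per the file headers, the authors deposited estimated counts and TPM for each library. The submitters' processing notes list HISAT, StringTie, Bowtie, RSEM, DESeq2 and the build mm10, with no role or version. The library kit and its strandedness are not given in the sources used here, so reads of genes overlapping Notch1, Notch2, Notch3, Jag2 and Hey1 cannot be told apart from theirs. FPKM in 6 columns and 9 columns of group means were not used.

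Estimated counts were summed per gene, rounded to whole numbers and tested with edgeR 4.0.16 in R 4.3.3: filterByExpr (minimum count 10, minimum total 15), TMM factors of 0.856 to 1.12, the quasi-likelihood F-test over all 6 libraries, two-sided, and Benjamini-Hochberg adjustment over 12643 genes at 0.05. Of the 17558 genes, 17445 matched a symbol. The genes without one held at most 0.148% of the counts. Standard errors (SE) were taken as |log2 fold change| over the root of F. TPM was summed per gene for levels. Alternatives were DESeq2 1.42.0, limma 3.58.1 on log2(TPM + 1) and log2(TPM + 0.1), other scalings and filters, only the 4 libraries compared, a replicate block, and each library left out.

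Named in the text are the 10 members, genes of the listed pathway among the largest called changes of their role with a mean of at least 50 counts, the 2 genes nearest to each member (1 of them is not reported here), Pkm, Myog and Mki67, and markers of cell types. Outside this rule, Col5a1, Dlk2, Notch4, Neurl1b and Nrarp were chosen after their values were seen. The members and lists were chosen with earlier results of these data known.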

Additional observations from a re-analysis of the deposited data

How the results depend on the processing

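Over 15 alternatives, the counts of called members were 5 to 7 (shPkm1 against shScr), 5 to 9 (libraries labelled shPkm2 against shScr) and 6 to 7 (between the hairpins), and those of all called genes 6047 to 8285, 7231 to 8797 and 4939 to 7987. Of 450 values of members under these alternatives, 407 kept direction and side of the threshold, 17 gained a call, 6 lost one and 20 changed sign. Of the 30 comparisons of a member, 17 were the same in every alternative, among them all of Heyl. The causes of the changes were not tested.

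In shPkm1 against shScr the sign changed for Notch1 (0.0014 with library totals only, 0.18 and 0.20 on log2(TPM + 1) and log2(TPM + 0.1)), Dll1 (0.16, 0.35 and 0.37) and Hey1 (0.16, 0.31 and 0.34). With 1 library left out, it also changed for Dll1 (range -0.13 to 0.08), Hey1 (-0.19 to 0.13) and Hdac1 (-0.01 to 0.17). In the libraries labelled shPkm2 against shScr it changed for Notch3 (0.27, 0.39 and 0.40) and, on TPM, Notch1 (0.10 and 0.11). With 1 library left out, it changed for Notch3 (-0.13 to 0.04), Hes1 (-0.22 to 0.27), Megf10 (-0.05 to 0.34), Notch4 (-0.96 to 0.04) and Jag1 (-0.13 to 0.39). Between the hairpins it changed for Lfng (0.05, library totals only) and, with 1 library left out, for Notch2 (-0.01 to 0.18) and Tle2 (-0.0011 to 0.24). Of these values of changed sign, those of Notch3 with library totals and TPM alone were called (adjusted p = 0.0428, 0.0165 and 0.016).

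With library totals only, the median of all genes was 0.19, 0.33 and 0.14 in the 3 comparisons, against 0.00, 0.01 and 0.00 with TMM. Of the called genes 65.8%, 69.3% and 61.3% were then higher, against 50.3%, 49.8% and 48.4%. With log2(TPM + 1) these shares of genes were 78.1%, 75.7% and 53.8%. A library left alone in its group was assumed to vary like the others.

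With the replicate number as a block, 7922, 8566 and 6682 genes were called, and no call of a member changed. Libraries of the same number did not deviate together (r = -0.0256, 0.0418 and 0.0527 across genes), so no strong shared effect of the number was seen. The labels do not say whether libraries of the same number were prepared together, and these correlations cannot decide it.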
